A study of Mus musculus with 28 samples.

Results

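The 8 genes described here, Vwf, Pecam1, Cdh5, Tek, Tie1, Kdr, Eng and Emcn, are markers of endothelial cells, and they were followed in mouse hearts through every probe set annotated to them. They were read by 10 of the 45037 probe sets tested, and stand among 18193 genes with a probe set of 1 gene symbol. Cdh5 and Eng had 2 probe sets each and the other 6 genes had 1. Total RNA of frozen heart tissue was measured on 28 arrays, 7 in each of 4 groups. The groups were del337TR animals given WY14643, control animals given WY14643, untreated del337TR animals and untreated control animals. The del337TR animals carry a deletion labelled del337TR, or del337 in the titles of the treated arrays. They model resistance to thyroid hormone, a state in which a mutant receptor answers the hormone poorly. WY14643 is a synthetic ligand of PPARalpha, the nuclear receptor that governs fatty acid burning in heart and liver. The sources used here name neither the receptor gene, the genetic background and the ages nor the dose and length of treatment. The series' design counts each group as 7 individuals, which limits the precision.

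Endothelial cells line the heart's capillaries, larger vessels and chambers, and capillaries run beside nearly every muscle cell. They hold together through VE-cadherin and PECAM-1 at their contacts, sense growth factors through VEGF and Tie receptors, respond to BMP ligands through endoglin, and store von Willebrand factor for release at sites of injury. They also pass fatty acids to the muscle, which is the fuel whose use PPARalpha governs. In RNA from whole heart tissue, fewer endothelial cells and less of a transcript per cell cannot be told apart.

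The RefSeq promoter table of build GRCm38.p6 held 5 of the 8 genes, Tek, Tie1, Kdr, Eng and Emcn, each as a window of 300 bases around a transcript start. The start used by the table is that of the gene coordinates given below for Tie1 and Eng, and lies 16 bases inside the gene for Emcn, 203 for Tek and 617 for Kdr. The windows of Emcn, Tek and Tie1 are shown because the pairs of Emcn with Tek and with Tie1 were among those with the highest correlations from animal to animal, as described below, although that of Tek with Tie1 was 0.54, and 0.37 without the array of del337TR replicate 6. Capitals mark GGAA or its reverse complement TTCC, the core that ETS factors bind, a family that includes regulators of endothelial genes.
Emcn, chr3:137340828-137341127, plus strand: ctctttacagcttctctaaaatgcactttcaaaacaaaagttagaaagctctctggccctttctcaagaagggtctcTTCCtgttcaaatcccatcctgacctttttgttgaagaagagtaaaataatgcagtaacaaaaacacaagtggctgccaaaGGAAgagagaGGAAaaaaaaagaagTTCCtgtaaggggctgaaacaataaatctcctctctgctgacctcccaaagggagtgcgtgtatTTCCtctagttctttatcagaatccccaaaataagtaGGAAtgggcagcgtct
Tek, chr4:94739039-94739338, plus strand: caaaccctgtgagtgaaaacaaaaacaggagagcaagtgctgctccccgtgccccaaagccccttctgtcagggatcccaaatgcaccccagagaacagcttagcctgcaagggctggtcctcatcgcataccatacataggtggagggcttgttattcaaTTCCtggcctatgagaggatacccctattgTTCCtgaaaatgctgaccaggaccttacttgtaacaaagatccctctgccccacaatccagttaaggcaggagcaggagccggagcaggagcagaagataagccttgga
Tie1, chr4:118489800-118490099, minus strand: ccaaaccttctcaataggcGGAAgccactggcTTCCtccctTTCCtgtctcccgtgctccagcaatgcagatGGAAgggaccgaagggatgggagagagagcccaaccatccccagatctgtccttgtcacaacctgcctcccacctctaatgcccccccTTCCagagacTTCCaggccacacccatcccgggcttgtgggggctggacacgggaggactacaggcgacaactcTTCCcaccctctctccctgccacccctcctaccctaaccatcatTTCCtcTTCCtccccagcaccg
The core was found 6 times in the Emcn window, 2 times in that of Tek and 9 times in that of Tie1, and 5 and 4 times in those of Kdr and Eng. Of the 32851 promoter windows of this length in the table, 96.0% held it at least once, with a median of 3 sites, and 1.59% held it as often as Tie1. The half-site AGGTCA (reverse complement TGACCT), which thyroid hormone receptors and PPARs recognise in pairs, was found 2 times in the Emcn window and in none of the other 4. It occurs in 16.3% of all windows, and 1.81% hold it 2 or more times. The 2 motifs do not overlap each other in these windows. A match describes the letters only.

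Signals are the deposited values on a linear scale, and differences are on the log2 scale, with WY14643 minus untreated or del337TR minus control. The 8 genes were measurable throughout, since the brightest probe set of each stood at 143.6 or more on every array while the median signal of an array was 60.0 to 77.8. That brightest probe set represents the gene below unless the other is named. Correlations of an array with the mean of its group ran from 0.933 to 0.963. By Xist and Eif2s3y, the arrays were 1 female and 6 male among treated del337TR, 3 and 4 among treated controls, 4 and 3 among untreated del337TR, and 2 and 5 among untreated controls.

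A pair of arrays stood apart in these genes. The array of del337TR replicate 6 was the highest of all 28 for Tek, Tie1, Kdr, Eng and Emcn, and its median deviation from its group over the 8 genes was 0.71 log2 units. The array of WY14643-treated control replicate 7 lay below its group's mean in all 8 genes and was the lowest of all 28 in 4 of them, with a median deviation of -0.39. Its 3'/5' signal ratio of the beta-actin control probe sets, a measure of RNA degradation, was 1.82, against 1.09 to 1.52 on the other 27 arrays. The same ratio of the Gapdh control probe sets was 0.825 and did not stand out, with 0.774 to 0.877 over all arrays. The array's correlation with its group was the lowest of all, 0.933, though replicate 7 was the lowest of its group in all 4 groups (0.933 to 0.944). The part of RNA quality in its values was not tested. Counts over the 8 genes and the wider lists were repeated without these arrays, a choice made after seeing the data, and are given where the median turned direction or moved clearly.

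**Figure D1:**
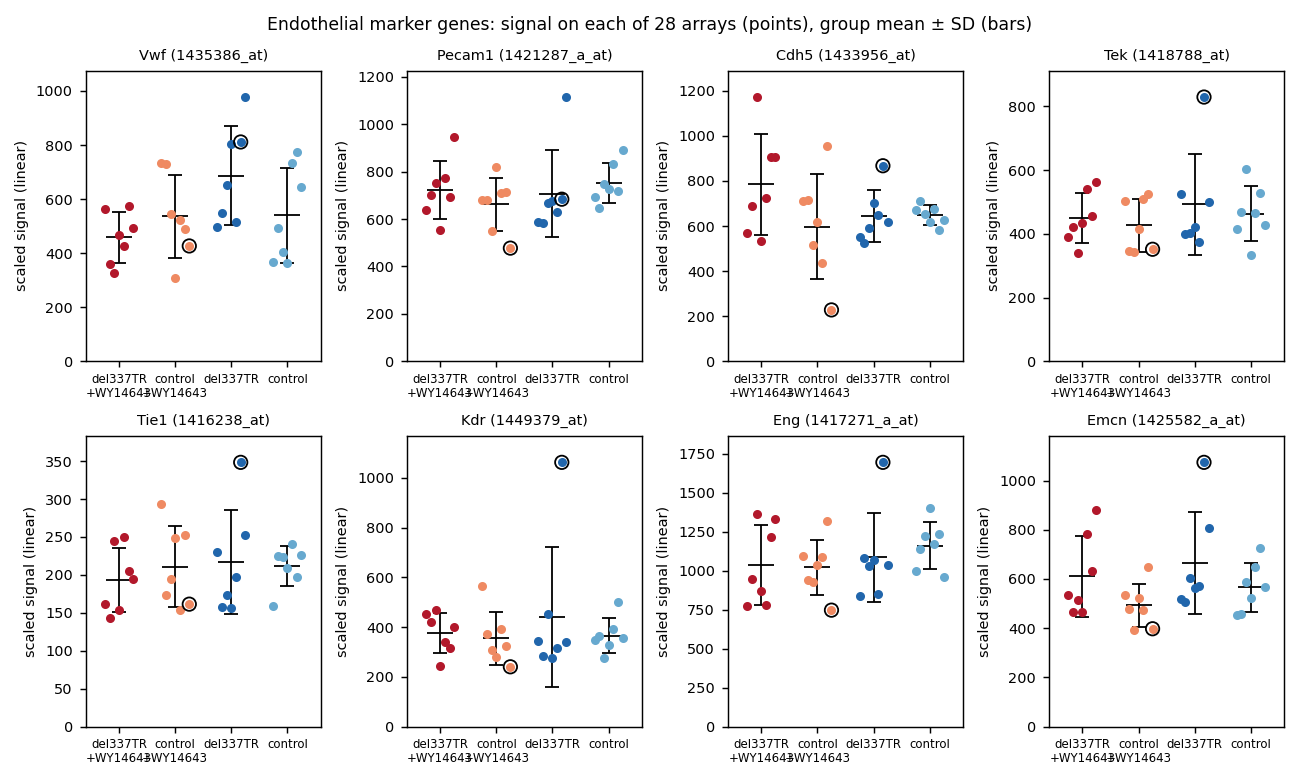
Linear signal (y axis, from 0) of the brightest probe set of each gene on each of 28 arrays, by group (x axis; del337TR with WY14643, control with WY14643, del337TR, control). Points are animals, bars are the group mean ± SD (7 arrays each), and rings mark del337TR replicate 6 and WY14643-treated control replicate 7. The 4 groups overlap in every gene, and the ringed del337TR array is the highest point for Tek, Tie1, Kdr, Eng and Emcn.

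No endothelial probe set reached an adjusted p under 0.05 by limma, with adjustment over the whole array, in any comparison. For del337TR against control without WY14643 the count was 0 of 10 probe sets, with a background of 0.00222% of all probe sets called. For WY14643 in controls, WY14643 in del337TR, del337TR against control under WY14643, the difference of the 2 WY14643 effects and both comparisons averaged over the other factor, it was 0 of 10 against a background of 0%. At an unadjusted p under 0.05, 2 of the 70 member tests stood, both described below, while between 4.01% and 8.86% of all probe sets did so in a comparison. The groups of 7 overlapped for all 10 probe sets in the 4 single comparisons, in which 31 to 48 of the 45037 probe sets had groups that did not overlap.

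The secreted member, Vwf (chr6:125552948-125686679, GRCm38.p6), encodes von Willebrand factor, the adhesive protein that endothelial cells keep in Weibel-Palade bodies and that tethers platelets. Its signal had a lowest, median and highest value of 326.0, 465.5 and 573.9 in treated del337TR, and of 495.2, 651.1 and 977.6 in untreated del337TR. In treated controls these were 309.1, 523.9 and 734.3, against 364.3, 493.1 and 776.0 in untreated controls. The treated del337TR hearts thus included no array above 573.9, while 4 of the 7 untreated ones lay higher than that. With WY14643, Vwf stood at -0.57 ± 0.21 (SE) in del337TR, with a 95% interval of -1.01 to -0.13. Limma gave an unadjusted p of 0.0134 and an adjusted p of 0.814, so the difference failed the correction. In controls the same difference was 0.00 ± 0.21 (interval -0.44 to 0.44). The test of the difference between these 2 effects gave -0.57 ± 0.30, with an unadjusted limma p of 0.0709 and an adjusted p of 0.956. Between strains Vwf stood at 0.37 ± 0.21 without WY14643 and at -0.20 ± 0.21 with it, neither past the threshold. In all 41 alternatives run, the WY14643 difference in del337TR stayed between -0.64 and -0.48 with an unadjusted limma p under 0.05. Its smallest adjusted p was 0.551. Many of these alternatives, such as leaving out a control array, could not move the difference itself, only its error. Their number therefore adds little to the main fit.

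At cell contacts, Cdh5 (chr8:104101613-104144504) encodes VE-cadherin, the adhesion molecule of endothelial adherens junctions. Its brighter probe set had a lowest, median and highest signal of 534.0, 725.9 and 1172.5 in treated del337TR, against 227.8, 620.1 and 956.6 in treated controls. Untreated del337TR had 524.6, 617.5 and 867.6, and untreated controls 584.2, 654.6 and 711.8. The controls given WY14643 were widely spread and the untreated controls closely packed, with coefficients of variation of 38.9% and 6.55%. Under WY14643, Cdh5 stood at 0.46 ± 0.22 (SE) in del337TR relative to controls, with an interval of 0.01 to 0.91, an unadjusted limma p of 0.0436 and an adjusted p of 0.551. Without WY14643-treated control replicate 7, whose signal of 227.8 was the lowest of the 28, the value was 0.25 ± 0.17. The dimmer Cdh5 probe set stood at 0.38 ± 0.25 in the same comparison, with 84.6 to 179.0 in treated del337TR and 66.1 to 141.2 in treated controls. Without WY14643 the strains differed by -0.03 ± 0.22 on the brighter probe set and 0.16 ± 0.25 on the dimmer, and the difference of the WY14643 effects was 0.49 ± 0.31 and 0.23 ± 0.35. None of these passed limma's threshold.

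Pecam1 (chr11:106654213-106715281) encodes PECAM-1 or CD31, an adhesion molecule of endothelial contacts that platelets and leukocytes also carry. Its lowest, median and highest signals were 555.6, 702.4 and 944.7 in treated del337TR, 477.2, 681.5 and 819.6 in treated controls, 584.0, 669.4 and 1114.5 in untreated del337TR, and 646.4, 725.6 and 890.4 in untreated controls. The 4 ranges overlapped. In untreated del337TR 1 array, replicate 7, lay apart at 1114.5, and the next highest read 683.6, below the median of untreated controls. With WY14643 the difference was 0.05 ± 0.14 in del337TR and -0.19 ± 0.14 in controls. Between strains it was 0.13 ± 0.14 with WY14643 and -0.11 ± 0.14 without. Its 95% intervals over these 4 comparisons reached from -0.48 to 0.41, so larger differences in either direction lie outside them.

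Among the growth factor receptors, Kdr (chr5:75932827-75979072) encodes VEGF receptor 2, the main signalling receptor for VEGF-A on endothelium. Its lowest, median and highest signals were 244.6, 400.7 and 467.1 in treated del337TR, 240.2, 322.1 and 563.1 in treated controls, 277.5, 341.0 and 1062.2 in untreated del337TR, and 275.0, 354.0 and 500.7 in untreated controls. The value of 1062.2, from del337TR replicate 6, was more than the next array of its group, at 450.6, by a wide gap. Kdr stood at 0.12 ± 0.24 for del337TR against control without WY14643 and at -0.08 ± 0.24 for WY14643 in del337TR. Without that array both directions turned, to -0.12 ± 0.18 and 0.16 ± 0.18. Under WY14643 the strain difference was 0.11 ± 0.24, and WY14643 in controls stood at -0.07 ± 0.24.

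Tek (chr4:94739086-94874976) encodes Tie2, the receptor that binds angiopoietins, and Tie1 (chr4:118471191-118489849) its relative without a well established ligand of its own, which modulates Tie2. Tek had lowest, median and highest signals of 340.8, 432.9 and 564.1 in treated del337TR, 342.5, 413.7 and 524.0 in treated controls, 375.2, 421.0 and 829.5 in untreated del337TR, and 334.0, 464.9 and 603.4 in untreated controls. Tie1 had 143.6, 195.0 and 249.6 in treated del337TR, 153.7, 194.4 and 293.3 in treated controls, 156.4, 197.6 and 348.4 in untreated del337TR, and 159.0, 223.4 and 240.1 in untreated controls. For both genes the medians of the 4 groups lay close together and the highest value came from del337TR replicate 6. The 4 single differences ran from -0.12 to 0.08 for Tek and from -0.14 to -0.01 for Tie1, and their 95% intervals stayed within -0.46 to 0.42 and -0.51 to 0.36.

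Eng (chr2:32646595-32682669) encodes endoglin, a co-receptor for BMP9 and BMP10 on endothelium. Its brighter probe set had lowest, median and highest signals of 774.1, 945.3 and 1361.6 in treated del337TR, 747.3, 1038.7 and 1317.3 in treated controls, 838.8, 1039.0 and 1696.2 in untreated del337TR, and 959.5, 1171.7 and 1400.2 in untreated controls. Its 2 probe sets gave like values, with -0.19 ± 0.16 and -0.09 ± 0.11 for WY14643 in controls, and -0.07 ± 0.16 and -0.08 ± 0.11 for WY14643 in del337TR. For del337TR against control they stood at 0.01 ± 0.16 and -0.05 ± 0.11 under WY14643, and at -0.12 ± 0.16 and -0.06 ± 0.11 without it. No difference in Eng was larger than the spread between animals allowed limma to call.

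Emcn (chr3:137341062-137431069) encodes endomucin, a sialomucin on the surface of capillary and venous endothelium. Its lowest, median and highest signals were 463.7, 534.7 and 878.8 in treated del337TR, 394.2, 478.6 and 650.2 in treated controls, 505.7, 573.2 and 1073.9 in untreated del337TR, and 452.9, 566.3 and 724.6 in untreated controls. The highest value of each del337TR group lay above that of its control group, while the medians were less apart. Between strains Emcn stood at 0.29 ± 0.17 (SE) under WY14643 and 0.20 ± 0.17 without it, and at 0.24 ± 0.12 over both treatments, with an unadjusted limma p of 0.0600 and an adjusted p of 0.668. Without del337TR replicate 6 the last value was 0.18 ± 0.11, and with the atrial genes Myl4, Myl7 and Sln as a covariate 0.16 ± 0.12. With WY14643 it stood at -0.11 ± 0.17 in del337TR and -0.20 ± 0.17 in controls.

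**Figure D2:**
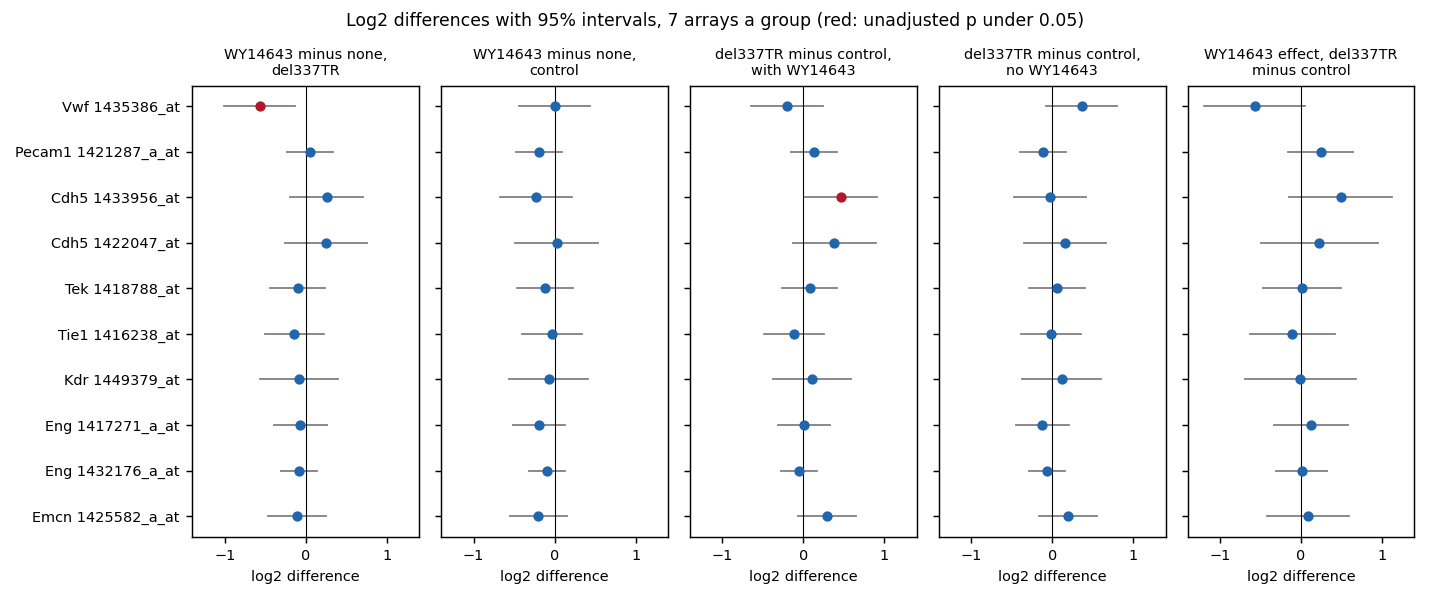
Log2 difference (x axis) of each of the 10 endothelial probe sets (rows) in 5 comparisons (panels), with 95% intervals from limma over 28 arrays as lines. Red points have an unadjusted p under 0.05, which are Vwf for WY14643 in del337TR (-0.57) and the brighter Cdh5 probe set for del337TR against control under WY14643 (0.46). The other 48 intervals include 0.

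As a group, the 8 genes leaned by small amounts. With WY14643, 7 of 8 stood below 0 in controls, with a median of -0.16, where the median of all probe sets was -0.03 and 55.4% of them stood below 0. Without treated control replicate 7, 5 of 8 stood below 0 and the median was -0.05. In del337TR, 6 of 8 stood below 0 with WY14643, with a median of -0.09 against 0.02 for all probe sets. Without del337TR replicate 6, 2 of 8 stood below 0, Vwf and Tie1, and the median was 0.04. For del337TR against control under WY14643, 6 of 8 stood above 0 (median 0.09, all probe sets 0.04). Without treated control replicate 7 this was 5 of 8, with a median of 0.03. Without WY14643, 4 of 8 stood above 0 (median 0.03, all probe sets -0.01). Without del337TR replicate 6 the last count was 2 of 8, and the median was -0.11. Over both treatments 6 of 8 stood above 0 in del337TR (median 0.08). Without del337TR replicate 6 this was 5 of 8 (0.01), and without both arrays 3 of 8 (-0.02), so that the direction of the median turned. For the difference of the WY14643 effects, 5 of 8 stood above 0 (median 0.05, all probe sets 0.04). Without del337TR replicate 6 this was 7 of 8 (0.22), and without both arrays 6 of 8 (0.15). With WY14643 over both strains, 7 of 8 stood below 0 (median -0.10, all probe sets -0.01), and 5 of 8 (-0.03) without both arrays. The comparisons share groups, so their values are not independent of one another.

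The 8 genes varied together from animal to animal within groups. After removing group means, all 28 pairs of genes had a positive Pearson's r over the 28 arrays, with a median of 0.45 and a range of 0.10 to 0.74. For comparison, the median r of a member with the brighter probe sets of the array was between 0.00 and 0.03, with 46.3% to 50.7% of them below 0. A median over so many probe sets lies near 0 for most genes, so it cannot show how unusual these pairs are. Some genes outside the 8 had a higher r with a member than any pair here, up to 0.87, as given below. In the permutation test within groups (100000 resamples, two-sided, adjusted by Benjamini and Hochberg over the 28 pairs), 11 pairs had an adjusted p under 0.05 for r and 7 for Spearman's rho.

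By r, Emcn was in 7 of the 11 pairs, every pair it could form. By rho 4 of its 7 pairs passed, those with Pecam1, Cdh5, Tek and Tie1, while Vwf and Eng (permutation adjusted p = 0.0545 for each) and Kdr (permutation adjusted p = 0.136) did not. The closest was Tek with Emcn, with r = 0.74 (permutation p = 9.0e-05, adjusted p = 0.00252) and rho = 0.63 (permutation p = 0.000660, adjusted p = 0.00924). Leaving out the 2 arrays farthest from the median of Tek, r was 0.65. Tie1 with Emcn had r = 0.66 (permutation p = 0.000660, adjusted p = 0.00616), rho = 0.61 (permutation adjusted p = 0.0154) and r = 0.56 without the 2 farthest arrays. Pecam1 with Emcn had r = 0.63 (permutation p = 0.00166, adjusted p = 0.0116), rho = 0.72 (permutation adjusted p = 0.000560) and r = 0.56 without the 2 farthest arrays. Cdh5 with Eng, the closest pair without Emcn, had r = 0.67 (permutation p = 0.000200, adjusted p = 0.00280), rho = 0.59 (permutation adjusted p = 0.0269) and r = 0.61 without the 2 farthest arrays. Vwf was the least tied to the others, with r between 0.10 and 0.44, and only its pair with Emcn passed (permutation p = 0.0189 and adjusted p = 0.0482 for r, and p = 0.0182 and adjusted p = 0.0545 for rho).

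**Figure D3:**
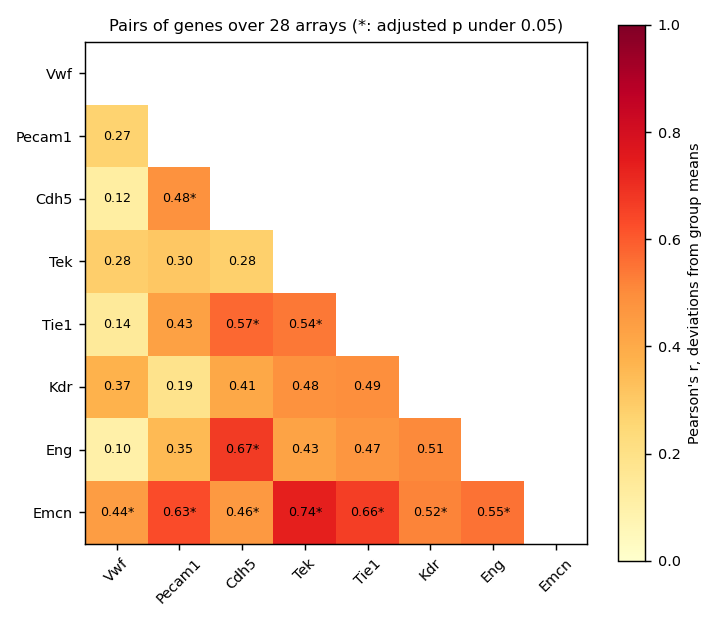
Pearson's r (colour and number) for each pair of the 8 genes over 28 arrays, computed on log2 signals after removing group means. Stars mark the 11 pairs with a permutation p adjusted over 28 pairs under 0.05, and the Emcn row is starred in all 7 of its cells, of which 4 also passed by Spearman's rho.

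A part of this covariation rested on single arrays. Without del337TR replicate 6, all 28 pairs stayed positive with a median r of 0.36, and 4 passed, namely Pecam1, Tek and Tie1 with Emcn, and Cdh5 with Eng. Without that array and treated control replicate 7, 26 pairs were positive with a median of 0.27 and 2 passed, Pecam1 and Tek with Emcn. Within single groups of 7 animals, 20 of 28 pairs were positive in treated del337TR (median r 0.33), 26 in treated controls (0.52), 28 in untreated del337TR (0.69) and 16 in untreated controls (0.09). The 2 probe sets of one gene, as a check on the measurement, followed each other with r = 0.54 for Cdh5 and 0.72 for Eng.

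**Figure D4:**
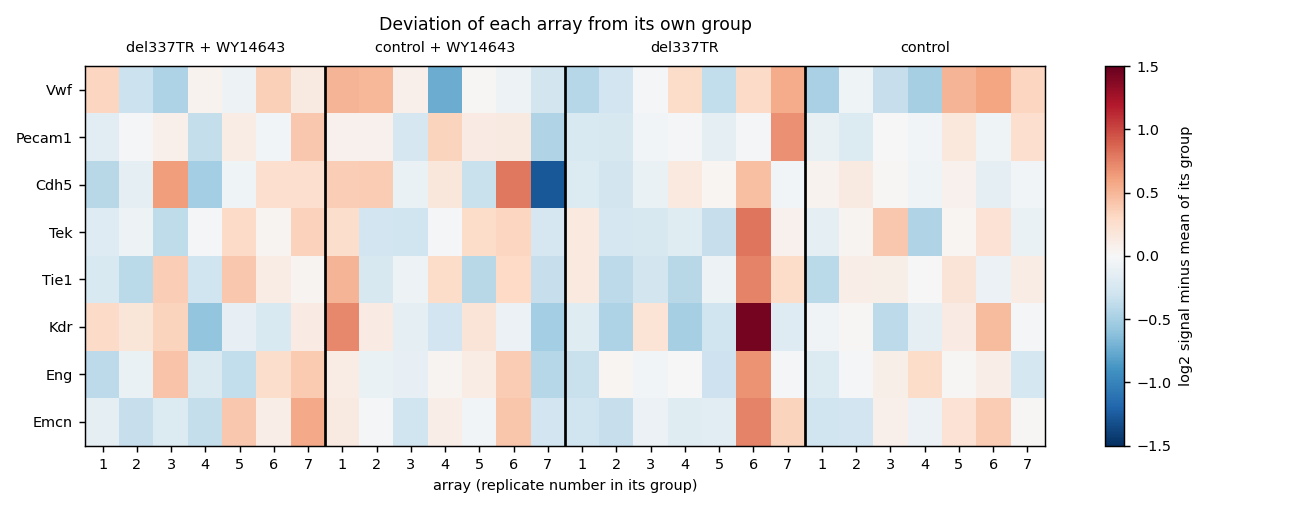
Log2 signal of each gene (rows) on each array (columns, by group and replicate) minus the mean of its own group, in colour from -1.5 to 1.5. Replicate 6 of untreated del337TR is red in 7 of 8 genes, and replicate 7 of WY14643-treated control is blue in all 8.

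The array of del337TR replicate 6 was high in more than the 8 genes. Against the mean of the other 6 untreated del337TR arrays, 7 of the 8 stood higher, with a median of 0.83 log2 units, and 6 were the highest of their group, where 13.5% of all probe sets were the highest and the median of all was -0.02. Nrp1, a VEGF co-receptor, read 3007.6 there against 796.1 to 1278.4 on the others, and Aplnr, the apelin receptor of venous endothelium, 1754.8 against 104.1 to 202.4. Nrarp, a Notch target, read 658.6 against 160.6 to 298.8, and Ets1, an ETS factor, 1879.8 against 543.5 to 951.5. Sox17, an arterial transcription factor, went the other way, at 245.8 against 494.9 to 1094.7. These genes were chosen after their values were seen.

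On that array 21 of 28 other endothelial genes stood above the rest of the group (median 0.41), as did 10 of 11 pericyte and smooth muscle genes (0.36) and 8 of 9 fibroblast genes (0.36). All 10 cardiomyocyte genes stood slightly below (-0.08), as did the 4 atrial genes (-0.30) and 5 of 6 platelet genes (-0.38). On treated control replicate 7 the reverse held for several lists. There 20 of 28 other endothelial genes stood below the mean of the rest of its group (-0.22), as did 8 of 9 fibroblast genes (-0.44), and all 10 cardiomyocyte genes stood above (0.24). The part of tissue sampling in these values was not tested.

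**Figure D5:**
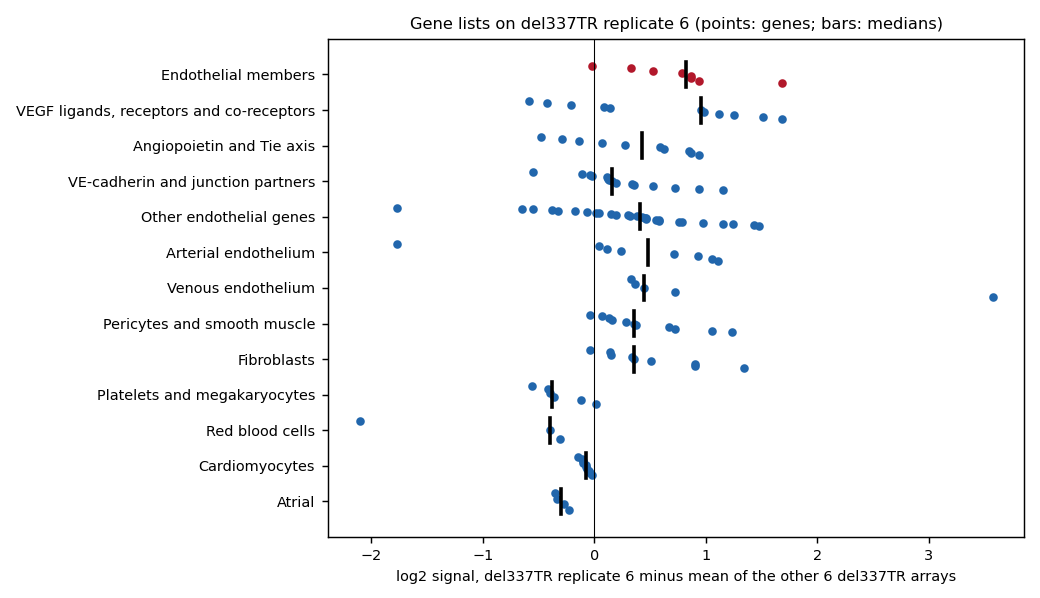
Log2 signal on del337TR replicate 6 minus the mean of the other 6 untreated del337TR arrays (x axis), for the genes (points) of 13 lists (rows), with the median of each list as a bar. The 8 endothelial markers, in red, have a median of 0.83 and the 10 cardiomyocyte genes one of -0.08, and lists share some genes.

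The genes whose animal-to-animal variation was most like that of a member, by r of deviations from group means over 28 arrays among brighter probe sets, are given as a description. They were Marcks (0.87), Dach1 (0.84) and Nrp1 (0.82) for Tek, Nceh1 (0.83), Tspan13 (0.81) and Tmod3 (0.77) for Tie1, and Elk3 (0.81), Gata4 (0.81) and Cd93 (0.81) for Kdr. For Emcn they were Septin11 (0.86), Ctsc (0.83) and Cav1 (0.81), and for Eng P4ha1 (0.81), Cmtm3 (0.79) and Sirpa (0.79). Cdh5 was most like Calr (0.87), Sparc (0.86) and Golph3 (0.84), Pecam1 like Cd300a (0.71), Yeats2 (0.70) and Gsg1l (0.69), and Vwf like Tor1aip2 (0.71), Sdf2l1 (0.68) and Ndrg1 (0.68). Nrp1, Cd93 and Cav1 are known in endothelium, while Calr and Sdf2l1 act in protein folding in the endoplasmic reticulum and P4ha1 in collagen hydroxylation. All arrays and their scaling are shared by these values, which were not computed again without the arrays that stood apart. Tek and Nrp1, for example, were both highest on del337TR replicate 6. The part of single arrays in these r values was not tested.

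The partners of the 8 genes were read through lists of ligands, receptors and targets, which include the members that belong to them. In no comparison did limma call a gene of the 21 lists, with or without the arrays that stood apart. List medians that turned direction or moved clearly without both arrays are given beside them. In the VEGF list (11 measured), 2 stood above and 9 below 0 for WY14643 in controls (median -0.07), and 6 above and 5 below in del337TR (0.02). Without both arrays that stood apart, the count below 0 in controls was 6 (median -0.04) and the median in del337TR 0.04. Flt1, VEGF receptor 1, stood at -0.16 ± 0.08 for del337TR over both treatments (unadjusted limma p of 0.0440), and at -0.10 ± 0.07 without both arrays. Nrp1 stood at 0.29 ± 0.16 for del337TR over both treatments on all 28 arrays. Its strain difference without WY14643 was 0.22 ± 0.23, and 0.004 ± 0.18 without both arrays. In the angiopoietin and Tie list (10 measured), 8 stood below 0 for WY14643 in controls (median -0.08) and 6 in del337TR (-0.05). Without both arrays the median in del337TR was 0.01, with 5 below. Angpt4, an angiopoietin, was dim, at 5.7 to 83.2, and above its array's median on 2 of 28 arrays. It stood at 1.07 ± 0.28 with WY14643 over both strains, at 1.35 ± 0.40 in controls and 0.80 ± 0.40 in del337TR, with a limma adjusted p of 0.456 for the first, and these log2 values rest on signals near the low end of the scale. Angpt2, an angiopoietin that can oppose Tie2 signalling, stood at 0.64 ± 0.25 for del337TR against control under WY14643 (limma adjusted p = 0.473), and at 0.42 ± 0.21 without both arrays. It too was dim, above its array's median on 7 of 28 arrays.

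In the endoglin, ALK1 and BMP list, 16 of 18 genes stood below 0 with WY14643 in controls (median -0.13) and 15 of 18 in del337TR (-0.07). Without both arrays these were 16 (-0.11) and 13 (-0.05). Id3, a target of BMP signalling, stood at -0.56 ± 0.15 in del337TR, with an unadjusted limma p of 0.000849 and an adjusted p of 0.767, and at -0.23 ± 0.15 in controls. Smad5, a mediator of BMP signals, stood at -0.31 ± 0.10 in del337TR. In the Notch list (10 measured), 7 stood below 0 with WY14643 in each strain, with Heyl, a Notch target, at -0.44 ± 0.16 in controls (-0.29 ± 0.13 without both arrays) and Jag2, a ligand, at 0.33 ± 0.12 in del337TR. Of 15 junction partners, 12 stood below 0 with WY14643 in controls (median -0.08) and 5 in del337TR (0.05), the first being 11 (-0.05) without both arrays. F11r, the junctional adhesion molecule A, stood at 0.46 ± 0.14 for del337TR against control under WY14643 (limma adjusted p = 0.427), and Esam, an adhesion molecule of endothelium, at -0.28 ± 0.09 over both treatments (limma adjusted p = 0.537).

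Of 8 genes measured on the list of von Willebrand factor storage and cleavage, 6 stood below 0 with WY14643 in del337TR (median -0.19). In controls 6 did (-0.14). Adamts13, listed for cleavage, had no probe set of 1 symbol, so cleavage was not read. The 6 in del337TR include Vwf itself and Selp. Itgb3, F8 and Rab27a on this list had low signals, with medians of 29.0, 56.45 and 64.35, where array medians were 60.0 to 77.8. Rab3d, a secretory GTPase, stood at 0.33 ± 0.14 for del337TR against control under WY14643. Selp, the P-selectin that shares Weibel-Palade bodies with von Willebrand factor, was above its array's median on 1 of 28 arrays only, del337TR replicate 1, at 257.5. Its difference of 1.13 ± 0.57 for del337TR against control without WY14643 was 0.58 ± 0.46 without that array. With WY14643 in del337TR, Selp stood at 0.30 ± 0.46 without that array, above 0 in place of below. Both values were added after seeing the data. Among 7 adhesion genes of inflamed endothelium, Vcam1 stood at 0.43 ± 0.14 for del337TR over both treatments (limma adjusted p = 0.545) and Nfkbia, an inhibitor of NF-kappaB, at 0.33 ± 0.14 with WY14643 over both strains. Of 28 other endothelial genes, 18 stood below 0 with WY14643 in controls (median -0.06) and 15 in del337TR (-0.02). Without both arrays the median in controls was 0.01, with 14 below. Sox18, an endothelial transcription factor, stood at -0.93 ± 0.32 with WY14643 over both strains (limma adjusted p = 0.532).

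By vessel type, with WY14643 in del337TR, 5 of 8 arterial genes (median -0.32), 5 of 5 venous genes (-0.31), 4 of 6 lymphatic genes (-0.17) and 5 of 6 endocardial genes (-0.05) stood below 0. In controls the counts were 6 of 8 (-0.18), 3 of 5 (-0.11), 6 of 6 (-0.13) and 6 of 6 (-0.15). Without both arrays the endocardial count in del337TR was 4 of 6 (-0.03), and the lymphatic one 3 of 6 (-0.12). The arterial genes include Gja5, which read 3.2 to 9.9, below its array's median on all 28 arrays. The venous genes include the member Vwf, the dim Selp and Aplnr, which read 1754.8 on del337TR replicate 6. Selp with WY14643 in del337TR stood above 0 without del337TR replicate 1, at 0.30 ± 0.46. Bmx, a kinase of arterial endothelium that was dim here (above its array's median on 4 of 28 arrays), stood at -0.48 ± 0.19 and Cxcr4, a chemokine receptor, at -0.46 ± 0.17 with WY14643 over both strains. Lyve1, a receptor of lymphatic endothelium, stood at -0.51 ± 0.17 with WY14643 in del337TR, and Pdpn, a glycoprotein of lymphatic endothelium, at 0.26 ± 0.11 for del337TR over both treatments. Npr3, the natriuretic peptide clearance receptor of endocardium, stood at 0.36 ± 0.13 and Cdh11, another cadherin, at -0.39 ± 0.17, the first for del337TR over both treatments and the second for WY14643 over both strains. Of 10 genes of endothelial lipid handling, 6 stood above 0 with WY14643 in controls (0.06) and 4 in del337TR (-0.06). Slc27a3, a fatty acid transport protein family member, read 3.2 to 15.3, below its array's median on all 28 arrays. No difference is given for it, though it is counted among the 10. Gpihbp1, the capillary anchor of lipoprotein lipase, stood at -0.22 ± 0.09 for del337TR over both treatments.

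Markers of other cells are given beside the endothelial genes. With WY14643 in controls, 7 of 9 fibroblast genes stood below 0 (median -0.17) and 10 of 10 cardiomyocyte genes above (0.16), next to 7 of 8 endothelial markers below. Without both arrays these were 7 of 9 (-0.06), 10 of 10 (0.12) and 5 of 8. Over both treatments, 9 of 9 fibroblast genes (0.20), 6 of 6 endocardial genes (0.17) and 6 of 8 endothelial markers (0.08) stood above 0 in del337TR. Without both arrays these were 8 of 9 (0.11), 5 of 6 (0.10) and 3 of 8 (-0.02). In the same comparison all 4 atrial genes stood above 0, with a median of 1.35, and Myl4 read 106.9 to 14212.5 over the 28 arrays. With Myl4, Myl7 and Sln as a covariate, 5 of 8 endothelial markers stood above 0 (0.04). The part of atrial content in the fibroblast and endocardial values was not tested. With WY14643 in del337TR, 4 of 5 adipocyte genes (-1.08) and 7 of 11 pericyte and smooth muscle genes (-0.21) stood below 0. Those 4 adipocyte genes had an unadjusted limma p under 0.05, as had 5.78% of all probe sets, and none was called. Several adipocyte genes were dim, with Cidec and Lep below their array's median on all 28 arrays and Adipoq above it on 12. Summed over the 8 endothelial markers, the signal had a lowest, median and highest value of 3718.9, 4616.6 and 5715.6 in treated del337TR, 3029.6, 4290.4 and 5227.2 in treated controls, 4082.2, 4574.3 and 7372.8 in untreated del337TR, and 4101.7, 4695.2 and 5268.3 in untreated controls. The 4 ranges overlapped, and the part of a change in cell makeup in any of these values was not tested.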

How the data were processed

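Biotin-labelled targets made from total RNA of frozen hearts were read on 1-colour arrays, per the labels' protocols. The deposited table gives a linear intensity for each probe set on each array. The submitters' processing notes name RMA, but the deposited intensity values did not have its form. They were linear, and the trimmed mean (2% off each end) came to 250.0 on every array, so they were taken for globally scaled signals, whereas the design had assumed log2 values. The sources used here name neither the software behind them nor any batch.

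Of 45101 probe sets, 64 array controls were left out. Values were floored at 0.1, the lowest above 0, which touched 3 zeros, and log2 transformed. Group means were fitted over 28 arrays with limma 3.58.1 in R 4.3.3 (24 residual degrees of freedom), and two-sided p-values received the Benjamini-Hochberg adjustment over 45037 probe sets, with a threshold of 0.05. Genes were named only from probe sets with 1 symbol, which all 8 members had, and 187 of 200 genes on the other 21 lists were measured. The brightest probe set over all arrays represented a gene. Correlations were computed in Python 3.11.15 with scipy 1.17.1. None of the 378 pairs of arrays was identical. The fit and the permutation test were tested on simulated data.

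All probe sets of the members are named, 2 genes of each other list with the smallest unadjusted p in any of the 7 comparisons, of which those of endothelial lists are given in the text, and 3 genes per member for likeness. The members and lists were chosen with earlier results of these data known, so no list was tested and no p was adjusted over a list alone.

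The replicate numbers were checked for pairing. Of 42 pairs of arrays with the same number, 8 had a correlation of deviations above 0.1. Their median was 0.03, against 0.001 for pairs of other numbers. The main fit took the numbers as names only. A shared effect of the number was not excluded, and values with a replicate block are given below.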

Additional observations from a re-analysis of the deposited data

Results flagged for a closer look

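In 5 of 40 sets of 7 arrays (10 probe sets in 4 groups), 1 array lay farther from the others than Dixon's test at the 95% level allows, where chance gives about 1 in 20. For Tek, Kdr and the brighter Eng probe set this was del337TR replicate 6, with signals of 829.5, 1062.2 and 1696.2 against 525.8, 450.6 and 1080.5 on the next highest array. For Pecam1 it was del337TR replicate 7, with 1114.5 against 683.6. For the dimmer Cdh5 probe set it was untreated control replicate 3, the lowest of its group, with 46.9 against 82.6.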

How the results depend on the processing

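Over 42 settings, 14 of which did not leave out single arrays in turn, no endothelial probe set passed limma's threshold, and the smallest adjusted p was 0.400. Of 2854 values, 146 had the other sign than the reported one, all uncalled. With the replicate block, Emcn for del337TR over both treatments had an unadjusted limma p of 0.0268 (adjusted p = 0.571) in place of 0.0600, Cdh5 under WY14643 one of 0.0504, and no call changed. By correlation, 7 of 28 arrays were closest to an array of their own number, where chance gives about 4, and in all 4 groups replicate 7 had the lowest correlation with its group (r of 0.933 to 0.944). The cause was not tested.

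The pairwise correlation of endothelial genes, with 11 of 28 pairs past the adjusted threshold, moved most with single arrays. The count was 6 with quantile normalization, 14 with each array centred on its median, 6 without the 2 arrays farthest from the median of 1 gene, 4 without del337TR replicate 6, and 2 without that array and WY14643-treated control replicate 7. The last 2 settings were added after seeing the data.

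With each array centred on its median, 4 of 8 genes stood above 0 for del337TR against control under WY14643 (median 0.01), in place of 6. With sex from Xist and Eif2s3y as a covariate, Vwf for WY14643 in del337TR stood at -0.57 ± 0.23. With 1 array per group left out, the one correlating least with its group, Cdh5 under WY14643 stood at 0.21. Signals came without detection calls, and standard errors of 0.11 to 0.25 log2 units limit what differences could be called.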

Other observations

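The array of del337TR replicate 7, highest of its group in Vwf and Pecam1, was also the highest of its group in all 4 atrial genes (median 2.12 log2 units above the other 6) and in 5 of 10 cardiomyocyte genes. The array of WY14643-treated del337TR replicate 7, above its group mean in all 8 endothelial markers, was likewise the highest of its group in all 4 atrial genes (3.27) and in 5 of 6 endocardial genes (0.72).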
